A study of Schmidtea mediterranea with 18 samples.

Results

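The comparison described here sets APC RNAi against control RNAi at days 1, 2 and 3 after amputation, in regenerating trunks of Schmidtea mediterranea, a freshwater planarian. It was defined by treatment and day from the sample labels, which gives 3 APC RNAi and 3 control libraries, 6 of the 18 libraries in all. APC RNAi animals received RNA interference feeds directed at apc. Control animals received a control feed, which the sample titles call GFP. All animals were of the clonal asexual strain CIW4 and otherwise wild type, had 3 RNAi feeds and were cut 3 days after the last feed. The growth protocol gives a week of starvation before collection, which is longer than the 4 to 6 days that these times leave between the last feed and days 1 to 3, and the labels do not settle this. Each library is 1 pool, made by mixing the RNA of 3 biological replicates. The 3 days therefore serve as the replicates, paired by day. The p-values set a difference against a spread between libraries that was estimated over all 18. They do not measure how a difference varied between animals. One protocol label names tail fragments where the others name trunk fragments, and trunk is used here. The ages and sizes of the animals are not given in the sources used here.

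Apc is a scaffold of the complex that marks beta-catenin for breakdown, and beta-catenin carries the canonical Wnt signal into the nucleus. Loss of apc thus takes a brake off beta-catenin. In planarians this pathway sets the identity of the body ends: high beta-catenin activity goes with tail identity and low activity with head identity, and animals depleted of apc are known to regrow tails at wounds that face forward. The days covered here follow wound closure, when a trunk fragment that has lost its head and tail starts to build new tissue at both wounds from its stem cells.

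The files list transcripts by SmedASXL identifier and do not pair identifiers with gene names. The transcripts below are therefore given by identifier with no role, at most 2 that rose and 2 that fell for each comparison. The knockdown of apc itself could not be read, and no cell type markers could be checked. Levels are given in CPM, read counts relative to the library's total after TMM scaling between libraries, and can be compared between libraries for 1 transcript but not between transcripts of different lengths. In RNA of whole fragments, fewer cells of a type and less RNA per cell cannot be told apart.

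The libraries were first compared as a whole. Aligned reads numbered 49533084 to 54384725 in the APC RNAi libraries, against 47683039 to 58308153 in control. Transcripts with a mean below 1 CPM over all 18 libraries took 0.636%, 0.632% and 0.829% of the aligned reads in APC RNAi, against 0.869%, 1.03% and 1.16% in control. The share was lower in APC RNAi at 3 of 3 days, and the mean difference was -0.319 percentage points. At an equal depth of 40000000 reads, 65889, 65658 and 69849 transcripts were detected in APC RNAi, against 69882, 73121 and 74128 in control. Unaligned reads made up 3.98%, 4.10% and 5.70% of all reads in APC RNAi, against 4.54%, 4.77% and 6.06% in control. For each of these 3 measures an exact two-sided sign-flip permutation test gave p = 0.25, the smallest that 3 days allow, or 0.333 after Benjamini-Hochberg adjustment over 4 measures. The fourth, the share of reads in the 100 most abundant transcripts, was 34.8%, 32.2% and 31.4% in APC RNAi and 30.9%, 31.7% and 31.4% in control (exact p = 0.5, adjusted 0.5). One of these 100, SmedASXL_012104, held 2419400 of 49533084 aligned reads in APC RNAi at day 1, against 262667 of 58308153 in control. The control library of day 1 had the lowest share of rare transcripts among the 3 controls and lay nearest to the APC RNAi libraries, and the APC RNAi libraries of days 1 and 2 had the lowest shares of all 6.

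**Figure D1:**
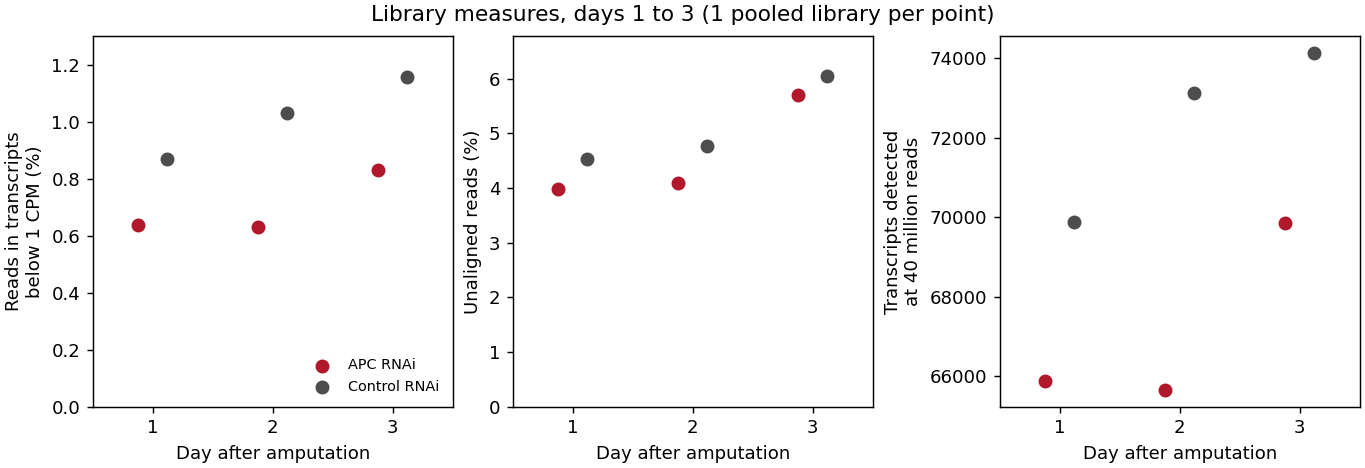
Share of aligned reads in transcripts below 1 CPM, share of unaligned reads, and number of transcripts detected at 40000000 reads, by day after amputation, with 1 point per pooled library. In each panel the APC RNAi library (red, left) sits below the control library (grey, right) of the same day; the third axis does not start at 0.

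The main question was which transcripts change in the first days of regeneration when apc is targeted. Over days 1 to 3, APC RNAi had higher levels of 2397 transcripts (6.62% of the 36235 tested) and lower levels of 1722 (4.75%), by edgeR's quasi-likelihood test at an adjusted p under 0.05. Large changes were few. At least 2-fold higher were 73 transcripts (0.201%) and at least 2-fold lower 779 (2.15%), and at least 4-fold 7 and 99. The higher transcripts were mostly abundant and changed little, with a median level of 50.0 CPM and a median log2 fold change of 0.29. The lower ones were mostly rare, with a median level of 0.883 CPM and a median log2 fold change of -0.95. Of all tested transcripts, 10.7% had all 3 APC RNAi libraries above all 3 control libraries and 14.2% had them below. Among those called, 1562 of 2397 higher transcripts were apart in this way, and 1404 of 1722 lower ones.

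The direction of change followed the level of the transcript. The 2665 transcripts over 64 CPM had a median log2 fold change of 0.19, with 1037 called higher and 15 called lower. The 18192 below 1 CPM had a median of -0.34, with 46 called higher and 912 called lower. The same order held at each day: the medians of the most abundant class were 0.13, 0.25 and 0.19 log2 units at days 1, 2 and 3, and those of the rarest class -0.23, -0.40 and -0.26. These shifts run alongside the lower share of rare transcripts in the APC RNAi libraries, and their part in the calls of single transcripts was not tested. The split between higher and lower moved with the scaling between libraries and with the tool. It was 4500 to 1603 with RLE size factors and 892 to 2451 when only transcripts over a floor of 4 CPM set the TMM factors, which moved the median of all log2 fold changes by -0.11. It was 719 to 506 with loess offsets, which remove a shift with level, and 4800 to 664 with DESeq2, which changes both the size factors and the test. Of changes of at least 2-fold, the 779 falls became 119 with loess offsets and 152 with DESeq2, while the 73 rises of that size became 120 with loess offsets.

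Under all 4 scalings of the edgeR test, APC RNAi was higher for 468 transcripts (1.29%) and lower for 324 (0.894%). The higher ones had a median level of 23.3 CPM and a median log2 fold change of 0.48, including 60 that changed at least 2-fold. For the lower set the median level was 4.06 CPM and the median log2 fold change -0.84, and 134 of them changed at least 2-fold. Of these sets, which were chosen by that same difference, 346 of 468 had all 3 APC RNAi libraries above all 3 control libraries (10.7% of all tested) and 289 of 324 had them below (14.2% of all tested). Day 2 carried many of the calls. When all libraries of day 2 were left out, the whole comparison gave 228 higher and 78 lower transcripts, and 209 of the 468 and 69 of the 324 were still called. Without day 3 it gave 643 and 534, with 374 and 234 of these sets still called. Without day 1 it gave 2793 and 1953, with 462 and 312 still called.

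**Figure D2:**
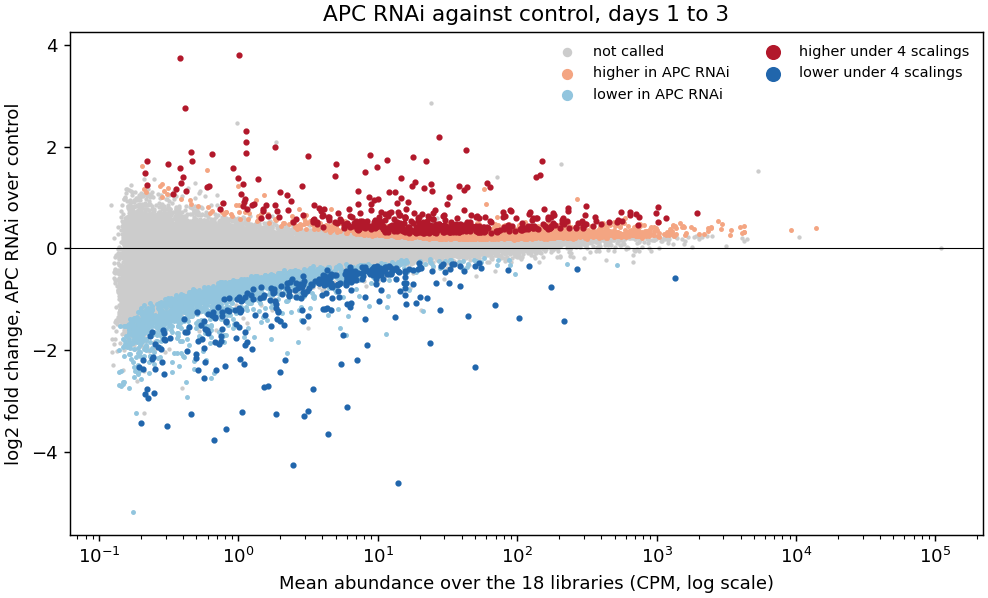
Log2 fold change of APC RNAi over control at days 1 to 3 (vertical axis) against mean level in CPM (horizontal log axis), with 1 point per tested transcript. Pale colours mark transcripts called with TMM scaling and dark colours the 468 higher and 324 lower ones called under all 4 scalings; pale blue points lie at the rare end and pale red points at the abundant end.

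Of the transcripts that could be named, SmedASXL_013884 had the largest rise. It stood at 86.7, 109.8 and 58.1 CPM in APC RNAi at days 1, 2 and 3, against 17.4, 24.0 and 14.0 CPM in control. Every APC RNAi library was above every control library, and both treatments were highest at day 2. The means were 84.8 CPM ± 25.9 in APC RNAi and 18.5 CPM ± 5.09 in control (SD over 3 days), which is 2.19 on the log2 scale (SE 0.20, edgeR adjusted p = 1.04e-06). SmedASXL_012297 was at 80.7, 80.3 and 58.4 CPM in APC RNAi, against 21.7, 20.5 and 15.3 CPM in control. Its daily differences were even, at 1.90, 1.97 and 1.93 log2 units, and the log2 fold change was 1.94 (edgeR adjusted p = 3.44e-08, SE 0.14).

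Among the transcripts that fell, SmedASXL_018153 changed most. It had 2.42, 0.418 and 0.411 CPM in APC RNAi (100, 19 and 21 reads), against 44.96, 22.7 and 11.7 CPM in control (2533, 1088 and 667 reads). The highest APC RNAi library was thus below the lowest control library, while control itself was lower at each later day. The log2 fold change was -4.61 (edgeR adjusted p = 1.05e-07, SE 0.37). SmedASXL_006717 had 0.752, 0.0881 and 0.117 CPM in APC RNAi, against 5.63, 3.54 and 2.16 CPM in control. Its APC RNAi values at days 2 and 3 rest on 4 and 6 reads, so that its log2 fold change of -3.65 (edgeR adjusted p = 0.00349, SE 0.71) is imprecise in size. All its APC RNAi libraries were below all control libraries, as in 14.2% of all tested transcripts.

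Among abundant transcripts, whose mean log2 CPM was 6 or more, SmedASXL_016707 rose most. It was at 309.8, 475 and 309 CPM in APC RNAi, against 106, 146 and 83.4 CPM in control, with a log2 fold change of 1.72 (edgeR adjusted p = 0.000416, SE 0.26). SmedASXL_018081 was at 337, 362 and 168 CPM in APC RNAi, against 98.5, 94.1 and 128 CPM in control, with a log2 fold change of 1.44 (edgeR adjusted p = 0.00019, SE 0.20). At day 3 its APC RNAi level was nearer to that of control. Its daily differences were 1.78, 1.94 and 0.39 log2 units, and the change of the difference over the days did not pass the threshold (adjusted p = 0.0626, edgeR).

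The abundant transcripts that fell changed less. SmedASXL_078933 had 146, 136 and 114 CPM in APC RNAi, against 147, 262 and 258 CPM in control. The treatments were level at day 1 and apart at days 2 and 3, and the log2 fold change was -0.77 (edgeR adjusted p = 0.00914, SE 0.17). That call was lost without day 2 (adjusted p = 0.157) and without day 3 (adjusted p = 0.0875). SmedASXL_012349 had 49.4, 46.4 and 62.5 CPM in APC RNAi, against 66.7, 65.9 and 78.5 CPM in control, a log2 fold change of -0.42 (edgeR adjusted p = 0.00508, SE 0.09). Its call was lost without day 2 (adjusted p = 0.10) and in the model that had no day term (adjusted p = 0.178).

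**Figure D3:**
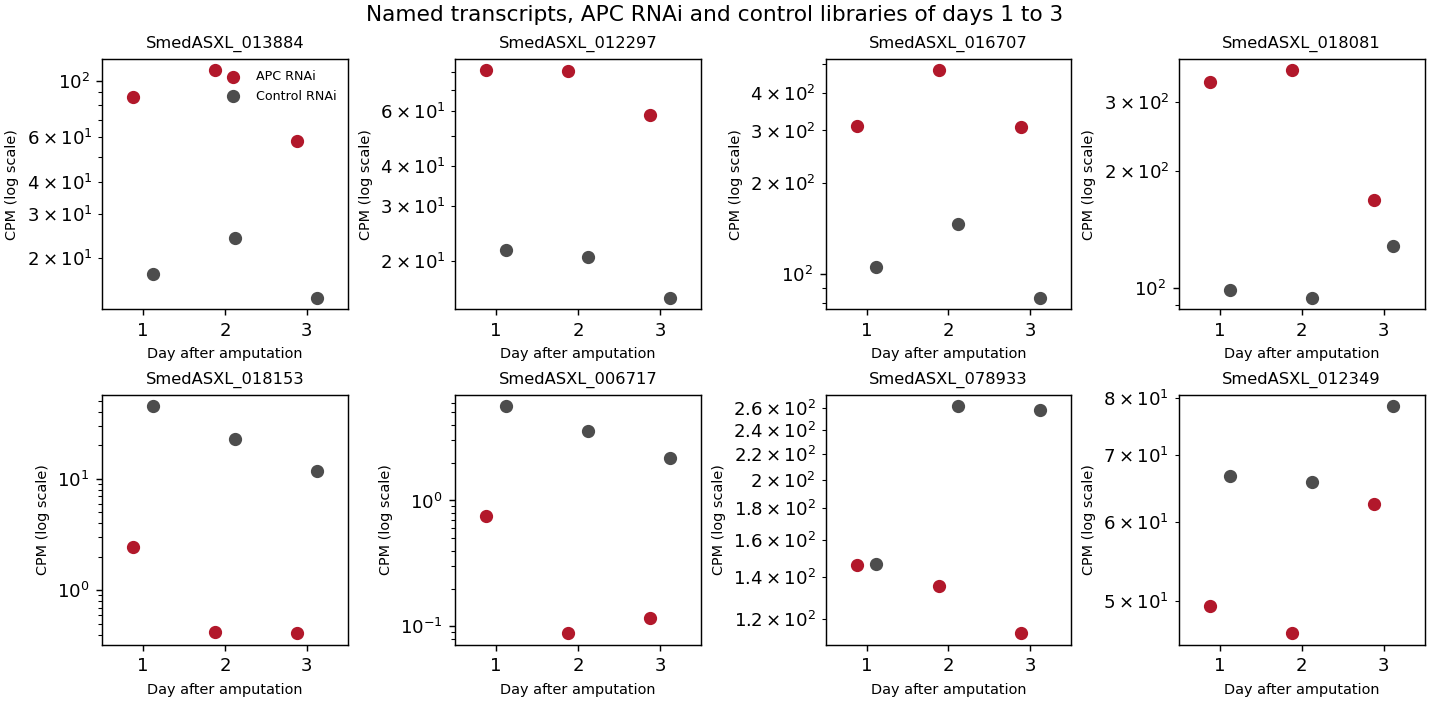
Level in CPM (log axis) of the 8 transcripts named for the whole and the abundant comparison, by day after amputation, with 1 point per pooled library (APC RNAi red and left, control grey and right). The upper row holds those that rose and the lower row those that fell; SmedASXL_078933 is level between treatments at day 1, and the other 7 differ in the same direction at every day.

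The days were then set side by side, with 1 library per treatment and day and hence no test. A mean level of 2 CPM or more over all 18 libraries was reached by 15134 transcripts. Of these, 44 (0.291%) were at least 2-fold higher and 56 (0.37%) at least 2-fold lower in APC RNAi at day 1. At day 2 these were 43 (0.284%) and 141 (0.932%), and at day 3 they were 39 (0.258%) and 62 (0.41%). Falls were thus most numerous at day 2, while the number of rises at this level was similar at each day with TMM scaling. With RLE size factors the rises were 52, 59 and 40 and the falls 45, 99 and 61. Over all 36235 tested transcripts the rises were 486, 306 and 281 and the falls 2010, 3724 and 1914. At all 3 days, 22 transcripts of 2 CPM or more were at least 2-fold higher, of 68 that were so at any day. In the same way, 19 were at least 2-fold lower, of 162. A further 32 were 2-fold higher at 1 day alone and 84 were 2-fold lower at 1 day alone.

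Transcripts picked for the 3-day comparison, the slope, the difference between early and later effects, or an earlier day were passed over here. At day 1 these included SmedASXL_064188 and SmedASXL_018222, with larger differences of 5.87 and 3.82 log2 units. They also included SmedASXL_007720, SmedASXL_033423 and SmedASXL_018153, with -4.48, -4.34 and -4.19. Of the rest, SmedASXL_012104 had the largest rise at day 1 (3.65 log2 units), with 58664 CPM in APC RNAi against 4662 CPM in control. At days 2 and 3 it was at 1572 and 1826 CPM in APC RNAi, against 1871 and 2396 CPM in control. A single APC RNAi library thus held a level far above the other 5, and the day 1 control library was the highest of the controls. SmedASXL_018306 had the same shape at a lower level, with 755 CPM in APC RNAi against 68.4 CPM in control at day 1, and 17.5 and 22.7 CPM in APC RNAi against 24.3 and 35.8 CPM in control at days 2 and 3. Neither was called over the 3 days together (adjusted p = 0.177 and 0.211, edgeR). The falls named at day 1 were SmedASXL_077889, with 1.04 CPM in APC RNAi against 16.6 CPM in control, and SmedASXL_077671, with 2.18 CPM in APC RNAi against 27.9 CPM in control. Both were low at day 2 as well, with 0.198 and 1.96 CPM in APC RNAi against 6.67 and 29.0 CPM in control. Over the 3 days both were called lower, with log2 fold changes of -2.20 and -1.86 (adjusted p = 0.00751 and 0.0132, edgeR). Both calls were lost without day 2 (adjusted p = 0.0555 and 0.176) and with no day term (adjusted p = 0.0692 and 0.0982), and leaving out 1 day moved the values to between -4.23 and -1.23 and to between -3.78 and -1.23. At day 3 they stood at 6.75 and 24.4 CPM in APC RNAi, close to the 7.85 and 25.5 CPM in control.

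At day 2 the rises not yet named were SmedASXL_018081, described among the abundant transcripts, and SmedASXL_013885. SmedASXL_013885 had 55.9, 54.9 and 32.5 CPM in APC RNAi over the 3 days, against 16.4, 15.4 and 9.38 CPM in control. Its log2 fold change over the days was 1.802 (edgeR adjusted p = 2.51e-07, SE 0.15), and the groups did not overlap. SmedASXL_005730 had 1.33, 0.286 and 0.293 CPM in APC RNAi (55, 13 and 15 reads), against 8.66, 5.63 and 2.05 CPM in control, a log2 fold change of -3.11 (edgeR adjusted p = 0.00738, SE 0.68). Without day 2 this call was lost (adjusted p = 0.093). SmedASXL_050373 had 0.994, 0.242 and 0.391 CPM in APC RNAi, against 3.80, 2.04 and 1.88 CPM in control. It was lower in APC RNAi at each day, with a log2 fold change of -2.28 (edgeR adjusted p = 0.00048, SE 0.35).

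At day 3 the rises were SmedASXL_016707, described above, and SmedASXL_018870. The level of SmedASXL_018870 was lower at each later day in both treatments: 14.1, 13.6 and 8.39 CPM in APC RNAi, against 11.2, 5.67 and 1.14 CPM in control. Its call over the 3 days (log2 fold change 1.42, SE 0.36, adjusted p = 0.0164, edgeR) was lost without day 2 (adjusted p = 0.0639) and without day 3 (adjusted p = 0.161). Its difference from control was 0.33, 1.26 and 2.84 log2 units at days 1, 2 and 3, though the test of this slope did not pass (adjusted p = 0.224, edgeR). The fall of SmedASXL_017380 was even over the days: 14.4, 11.4 and 13.4 CPM in APC RNAi, against 69.0, 64.9 and 62.7 CPM in control. Means were 13.1 CPM ± 1.52 in APC RNAi and 65.5 CPM ± 3.17 in control (SD over 3 days), a log2 fold change of -2.33 (edgeR adjusted p = 7e-13, SE 0.09). SmedASXL_057579 had 1.60, 1.08 and 1.51 CPM in APC RNAi, against 1.72, 6.46 and 6.45 CPM in control. As with SmedASXL_078933, its treatments were level at day 1, and its call (log2 fold change -1.83, SE 0.48, adjusted p = 0.0194, edgeR) was lost without day 2 (adjusted p = 0.235), without day 3 (adjusted p = 0.0947) and with loess offsets (adjusted p = 0.076).

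A test of the slope of the difference over days 1 to 3 asked which APC RNAi effects grew or shrank with time. It called 32 transcripts (0.0883%) whose difference moved upwards and 12 (0.0331%) whose difference moved downwards. As a set the 32, which were chosen by their values at days 1 to 3, were low in the APC RNAi libraries of days 1 and 2 and not from day 3 on. Their median differences were -2.56, -2.22 and 0.33 log2 units at days 1, 2 and 3, and 0.28, 0.53 and 0.45 at days 4, 5 and 6. In 23 of the 32, APC RNAi was at least 2-fold lower at both of the first days, and 10 of the 32 were within 1.5-fold of control at each of days 3 to 6. SmedASXL_033423 had the largest slope: its APC RNAi libraries held 5, 1 and 205 reads at days 1, 2 and 3, against 181, 228 and 180 reads in control, a slope of 4.22 log2 units per day (edgeR adjusted p = 3.34e-05, SE 0.48). SmedASXL_007720 had 0.267, 0.352 and 4.77 CPM in APC RNAi, against 6.82, 4.27 and 4.25 CPM in control, a slope of 2.95 (edgeR adjusted p = 7.4e-06, SE 0.28). The change was a step between days 2 and 3: without day 3 the slope of SmedASXL_033423 was -2.90. With DESeq2 the slope of SmedASXL_033423 was 2.70 and its call was lost (adjusted p = 1.00), while SmedASXL_007720 kept its call.

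The 12 that moved downwards, chosen by the same values, had a median difference of 3.39 log2 units at day 1, -0.33 at day 2 and -0.49 at day 3. In 10 of the 12, APC RNAi was at least 2-fold higher at day 1 and at neither day 2 nor day 3. SmedASXL_064188 had 334, 2.36 and 4.13 CPM in APC RNAi, against 5.66, 4.58 and 5.78 CPM in control, a slope of -3.43 log2 units per day (edgeR adjusted p = 0.000392, SE 0.46). SmedASXL_018222 had 2392, 51.2 and 57.3 CPM in APC RNAi, against 169.7, 57.0 and 78.7 CPM in control, a slope of -2.15 (edgeR adjusted p = 0.00227, SE 0.33). Without day 1 the slopes of these transcripts were 0.42 and -0.35. With DESeq2 both calls were lost (adjusted p = 0.178 and 0.306), and SmedASXL_018222 also lost its call with at least 1 CPM required in 3 libraries (adjusted p = 0.113).

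**Figure D4:**
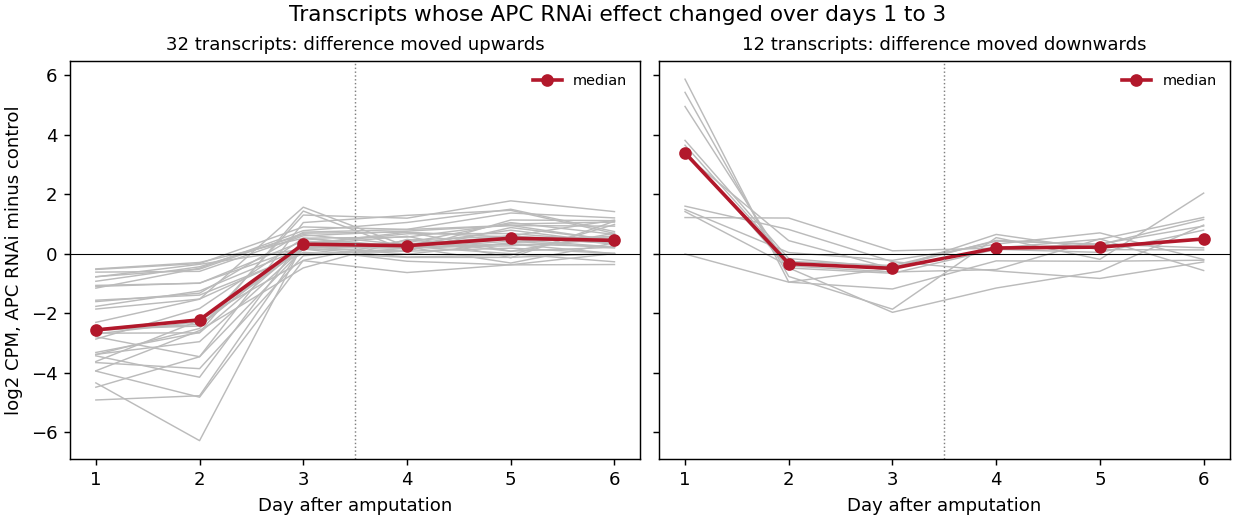
Difference between APC RNAi and control in log2 CPM at each day for the 32 transcripts whose difference moved upwards over days 1 to 3 (left) and the 12 whose difference moved downwards (right); grey lines are transcripts, red points their median, and the dotted line marks the end of the tested days. The left median steps from -2.22 at day 2 to 0.33 at day 3 and stays near it; the right median is 3.39 at day 1 and between -0.49 and 0.50 afterwards.

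The early calls were then read in the libraries of days 4 to 6. These entered the shared estimate of spread, the scaling and the mean level, but not the estimate of the early effect. In those later libraries 7793 of the 36235 tested transcripts (21.5%) passed the test as above control in APC RNAi and 6045 (16.7%) as below it. Of 33 transcripts over a floor of 2 CPM that were at least 2-fold higher early, all 33 had the same direction at days 4 to 6, where 77.2% of all transcripts of that level were higher, and 32 were called higher again, against 48.2% of all transcripts of that level. Their median log2 fold change was 1.28 early and 1.96 later, and 24 of the 33 were larger later, beside 10985 of 15134 among all transcripts of that level. Of the 57 that were at least 2-fold lower early, 50 had the same direction later, where 22.8% of all transcripts of that level were lower, and 40 were called lower again, against 8.65% of all. Their median was -1.34 early and -1.14 later. With loess offsets 30 of the 33 and 33 of the 57 were called in the same direction at days 4 to 6, against 18.3% higher and 16% lower of all transcripts of that level. The early higher set depended little on 1 day, with 30 to 33 still called without any 1 of days 1 to 3. The early lower set depended on day 2: without it 22 of the 57 were called, and 52 and 37 without days 1 and 3. The floor of 2 CPM is a mean over all 18 libraries, those of days 4 to 6 included. Without this floor, 52 of the 73 early rises of at least 2-fold were called higher again. Their median was 1.28 early and 1.33 later, and 36 were larger later, beside 19778 of 36235 among all tested. Of the 779 early falls of at least 2-fold, 456 were called lower again, with medians of -1.39 early and -0.99 later.

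**Figure D5:**
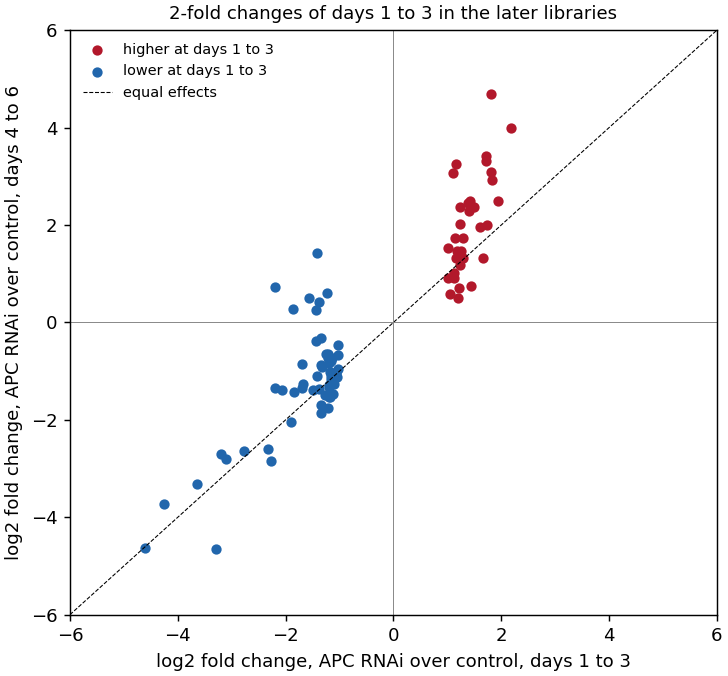
Log2 fold change of APC RNAi over control at days 4 to 6 (vertical) against days 1 to 3 (horizontal) for the 33 transcripts over 2 CPM that were at least 2-fold higher (red) and the 57 at least 2-fold lower (blue) at days 1 to 3. All 33 red points lie above 0 on the vertical axis, as do 77.2% of all transcripts of that level, and 50 of the 57 blue points lie below 0, as do 22.8% of all; the dashed line marks equal effects.

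The difference between the early and the later effect was tested directly in the same model. In 10 transcripts (0.0276%) the APC RNAi effect was lower at days 1 to 3 than at days 4 to 6, and in 0 it was higher (edgeR quasi-likelihood test). At an unadjusted p under 0.05 in the same edgeR test these were 3654 and 1117 of the 36235 tested. Many transcripts without any effect also pass that limit. The median log2 fold change of transcripts over 64 CPM was 0.19 early and 0.31 later, and that of transcripts below 1 CPM -0.34 and -0.48. The part of such shifts in these counts was not tested. At an adjusted p under 0.05, lower and higher early effects numbered 74 and 4 with DESeq2. With loess offsets, and with TMM set above 4 CPM, they numbered 0 and 0. All 10 transcripts called in the main test were higher in APC RNAi at days 4 to 6 by estimate, 9 of them also at days 1 to 3. SmedASXL_013884 is one of them: at days 4, 5 and 6 it stood at 50.4, 67.1 and 42.3 CPM in APC RNAi, against 5.12, 3.80 and 1.48 CPM in control. Its log2 fold change was 2.19 early and 3.99 later, a difference of -1.81 (edgeR adjusted p = 0.0479, SE 0.31). SmedASXL_012043 had 87.8, 69.4 and 38.7 CPM in APC RNAi at days 1 to 3, against 26.6, 23.3 and 10.4 CPM in control. At days 4 to 6 it had 29.4, 43.9 and 30.1 CPM in APC RNAi, against 4.91, 3.26 and 1.77 CPM in control, and the difference of the effects was -1.69 (edgeR adjusted p = 0.0357, SE 0.27). For both transcripts the control level was lower at each later day over days 2 to 6, while the lowest APC RNAi levels were 42.3 and 29.4 CPM. Both calls of a difference were lost with loess offsets (adjusted p = 0.156 each) and without day 2 (adjusted p = 0.107 each), and that of SmedASXL_013884 also with DESeq2 (adjusted p = 0.117).

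The Bcat RNAi libraries of the same days, from animals in which beta-catenin-1 was targeted, share the control libraries and are given only side by side. SmedASXL_013884 had 4.69, 3.13 and 2.26 CPM in Bcat RNAi, where APC RNAi had 86.7, 109.8 and 58.1 CPM and control 17.4, 24.0 and 14.0 CPM. SmedASXL_016707 had 54.8, 43.5 and 26.0 CPM in Bcat RNAi, below its control levels, and SmedASXL_013885 had 7.75, 5.58 and 4.37 CPM. At each of the 3 days these transcripts were highest in APC RNAi and lowest in Bcat RNAi, with control between. SmedASXL_050373 had the reverse order, with 6.62, 10.3 and 11.1 CPM in Bcat RNAi. SmedASXL_012297 was above control in Bcat RNAi as well, at 51.3, 32.5 and 35.5 CPM. SmedASXL_017380 was at 68.4, 69.0 and 66.6 CPM in Bcat RNAi, near its control levels of 69.0, 64.9 and 62.7 CPM. SmedASXL_077671, low in APC RNAi at days 1 and 2, was at 21.5, 26.6 and 21.4 CPM in Bcat RNAi. SmedASXL_057579 and SmedASXL_078933 were above control in Bcat RNAi at day 1 and below it at days 2 and 3. Their Bcat RNAi levels were 3.64, 0.849 and 0.584 CPM, and 182, 140 and 97.6 CPM. SmedASXL_006717 and SmedASXL_005730, both at 0.465 CPM in Bcat RNAi at day 1, were below control at that day alone. SmedASXL_012349 was also below control at day 1 alone. SmedASXL_018153 was below control in Bcat RNAi at each day, but by little at days 2 and 3. In the authors' deposited table, which compares APC RNAi with Bcat RNAi over all 6 days, SmedASXL_013884 has a log2 fold change of 3.33, SmedASXL_017380 one of -2.52 and SmedASXL_012297 one of 1.10.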

How the data were processed

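PolyA-selected RNA of regenerating trunk fragments was sequenced, per the labels' protocols. The deposited values are read counts, not normalized, for each of 82955 SmedASXL transcripts. Per the submitters' processing notes, bcl2fastq 1.8.3 and Bowtie2 2.2.4 were used, with no settings in the sources used here. How reads that fit several transcripts were placed and whether strand was used are not given, so counts of near-identical or overlapping transcripts are uncertain and isoforms may be listed apart. Rows of total and unaligned reads (3.98% to 6.06% unaligned in the 6 libraries compared) were left out. A further deposited table gives the authors' DESeq2 results for APC RNAi over Bcat RNAi, as a log2 fold change and an adjusted p-value, per the file headers.

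The tests were run with edgeR 4.0.16 in R 4.3.3. The filter filterByExpr by treatment kept 36235 transcripts; the 46720 left out held 0.284% of reads. The quasi-likelihood test used all 18 libraries, TMM factors, day as a factor and, for each knockdown, a term for days 1 to 3 and one for days 4 to 6, with 8 residual degrees of freedom (6 with slope terms). The p-values were adjusted by Benjamini and Hochberg's method across every tested transcript, with a threshold of 0.05. Single-day differences are of log2 CPM, computed with 2 as the prior count. Day pairs the libraries by the labels and serves as the replicate block; deviations of same-day libraries correlated by 0.205, 0.0913 and 0.263 at days 1, 2 and 3. No pair of the 6 libraries came below 7.15 in chi-square divided by its degrees of freedom. Alternatives were other scalings, filters, library sets, no block, days left out and DESeq2 1.42.0. The scripts were tested on simulated data.

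Named transcripts are at most 2 each way per comparison, by size of change among called transcripts whose mean log2 CPM was 1 or more (6 or more for abundant ones) and, for the 3-day comparison, the same direction at each day. At single days, where there is no test, transcripts named before were passed over. The comparison, rule and lists were chosen with earlier results of these data known. Gene lists and cell type markers, set by gene symbol, were not used because the files hold no symbols.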

Additional observations from a re-analysis of the deposited data

Results flagged for a closer look

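Results are listed here because a test found that an APC RNAi effect differed between times. The effect was lower at days 1 to 3 than at days 4 to 6 in 10 transcripts. The log2 difference between the early and later effects was -1.81 for SmedASXL_013884, -1.69 for SmedASXL_012043 and -1.29 for SmedASXL_013885 (adjusted p = 0.0479, 0.0357 and 0.0496, edgeR quasi-likelihood test). The difference of SmedASXL_013885 was lost with loess offsets (adjusted p = 0.156), TMM set above 4 CPM (0.229), no day term (0.772), DESeq2 (0.0847) and without day 2 (0.111). Each of these 3 was higher in APC RNAi at 6 of 6 days.

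The effect moved upwards over days 1 to 3 in 32 transcripts and downwards in 12. Upward slopes, in log2 units per day, were 4.22 for SmedASXL_033423, 2.95 for SmedASXL_007720, 2.23 for SmedASXL_077889 and 2.12 for SmedASXL_077671. All 4 were low in the APC RNAi libraries of days 1 and 2. In Bcat RNAi at days 1 and 2, SmedASXL_077671 had 21.5 and 26.6 CPM, against 27.9 and 29.0 CPM in control, while SmedASXL_077889 had 5.08 and 8.29 CPM, against 16.6 and 6.67 CPM in control. Downward slopes were -3.43 for SmedASXL_064188, -2.15 for SmedASXL_018222, -2.10 for SmedASXL_018306, -2.02 for SmedASXL_012104 and -0.59 for SmedASXL_078933. For the first 4 of these the APC RNAi library of day 1 was the highest of the 6, and without day 1 none of the 4 was called. SmedASXL_078933 also lost its slope call without day 1, where the slope was -0.28, and without day 3, where it was -0.95. With DESeq2 only SmedASXL_007720 and SmedASXL_078933 of these 9 kept their call, and the adjusted p of the other 7 lay between 0.178 and 1.00.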

How the results depend on the processing

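Of 2397 higher and 1722 lower transcripts in the main comparison, the higher ones became 4500 with RLE size factors, 892 when transcripts over 4 CPM alone set the TMM factors, 3698 with the 6 libraries of days 1 to 3 alone and 4800 with DESeq2, which gave 664 lower. Loess offsets gave 719 and 506, and no replicate block (day left out) 204 and 287. Without each day in turn they ranged from 228 to 2793 and from 78 to 1953. The 73 higher and 779 lower ones of at least 2-fold became 120 and 119 under loess, 47 and 202 with no replicate block, 44 and 244 with at least 1 CPM in 3 libraries, 124 higher with no filter, 152 lower with DESeq2, and 45 to 85 and 52 to 1071 without each day. The 10 early effects below the later ones became 0 with TMM set above 4 CPM, loess offsets, the stricter filter and no block, 47 (and 10 above) with 12 libraries, 74 (and 4) with DESeq2, and 3 to 101 (and 0 to 10) without each day; RLE gave 1 above. The 32 upward and 12 downward slopes became 12 and 3 with the stricter filter and 19 and 6 with DESeq2. Leaving out days, chosen after the data were seen, gave 1 to 34 and 2 to 28. Without each day in turn the slope ran from -6.84 to 0.42 for SmedASXL_064188, positive without day 1, and was negative without day 3 in SmedASXL_033423 (-2.90 to 7.90), SmedASXL_077889 (-1.07 to 4.79) and SmedASXL_077671 (-0.21 to 3.77). The difference in the share of rare transcripts was -0.228 percentage points below 0.5 CPM and -0.418 below 2 CPM. The causes were not tested, beyond fewer libraries or transcripts by construction. Of 318 alternative values with a test for named transcripts, 259 kept direction and side of the threshold, 55 lost the call and 4 turned; of 36 single-day values, which have no test, 2 moved by more than the spread over days. Transcripts of few reads limit the precision of large falls, and 1 pool per day leaves the spread between animals unmeasured.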

Other observations

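Seen in the values and only then defined as a set were 43 of the 15134 transcripts of at least 2 CPM. They were at least 2-fold lower in APC RNAi at both day 1 and day 2. Their median differences were -1.94 and -2.20 log2 units at days 1 and 2, and -0.94 at day 3. In 10 of the 43, APC RNAi was within 1.5-fold of control at each of days 3 to 6. In 0 of these 10 was Bcat RNAi at least 2-fold below control at both days 1 and 2. How many of all 15134 were so in Bcat RNAi was not counted, so this 0 does not set the 10 apart. In the opposite direction, 28 of the 15134 transcripts were at least 2-fold higher at both days, and 2 of the 28 were within 1.5-fold of control at each of days 3 to 6. With 1 pooled library per treatment and day, a difference between pools and an effect of treatment at these days cannot be told apart.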
